A study of Mus musculus with 33 samples.

Results

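Nos1, Pde2a, Mrvi1 and Ppp1r12a are 4 genes of nitric oxide and cyclic GMP signalling that each had 1 alternatively spliced exon in mice whose Dmpk gene carries an expanded CTG repeat. They were picked by gene symbol from the study's 20 splicing tables, which list 549 events in 376 genes, and all 4 of their events are skipped exons. The tables themselves hold only events selected on measured inclusion values: an average of at least 5 reads, a false discovery rate (FDR) of at most 0.05 and a change of at least 10 percentage points, by the authors' own analysis. That these exons differ between genotypes is therefore how they were chosen, and their values are given as a description with no added test. "Rose" and "fell" are used for exons that passed the authors' test.

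The expansion mice carry the 480 allele of Dmpk, a knock-in with 480 CTG repeats, on the FVB strain. The groups set against wild type (Dmpk+/+, FVB) are 480/480 tibialis anterior (TA, a leg muscle), 480/480 choroid plexus (the tissue that secretes cerebrospinal fluid), 480/480 myotubes (fused muscle cells differentiated in culture) and +/480 myotubes, which have 1 expanded allele in place of 2. The labels give 3 libraries in each group, each from its own mouse, and within a genotype the same 3 mice gave the libraries of every tissue. No age is stated in the labels. The choroid plexus tables hold 2 values for the 480/480 group, so n = 2 there, and which of the 3 labelled libraries is absent is not stated. The tables hold no expression levels, so the labelled tissues could not be checked against marker genes. In whole tissue, altered splicing within a cell type and an altered mix of cell types cannot be told apart. Inclusion is the authors' estimate of the percentage of transcripts that contain the exon, and the number of reads behind each value is unknown beyond the authors' minimum.

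Nitric oxide synthases make nitric oxide from arginine, and nitric oxide switches on soluble guanylate cyclase, which makes cyclic GMP. Cyclic GMP activates protein kinase G, which relaxes smooth muscle by lowering calcium release and by acting on myosin phosphatase, and phosphodiesterases break cyclic GMP down. In skeletal muscle the main source of nitric oxide is the neuronal synthase held at the membrane by the dystrophin complex, and in brain and vessel walls the same pathway controls blood flow. The 4 genes sit at different steps. Nos1 encodes the neuronal nitric oxide synthase, Pde2a a phosphodiesterase that cyclic GMP stimulates, Mrvi1 (also called IRAG) the protein kinase G substrate that restrains calcium release through inositol trisphosphate receptors, and Ppp1r12a (MYPT1) the subunit that targets myosin phosphatase to myosin.

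The regulated exons are shown because the finding rests on which of these stretches are kept in the transcript. They were read from the GENCODE M21 transcripts of mm10, 5′ to 3′ on the RNA strand. For Mrvi1 the last 60 bases of the exon are shown, which begin with the start codon of the form with 856 codons. Capitals mark motifs known to be bound by MBNL splicing regulators: the motif TGCT, the motif TGCC, the motif CGCT and the motif CGCC, each searched on the RNA strand only.
Nos1, chr5:117915547-117915648, plus strand: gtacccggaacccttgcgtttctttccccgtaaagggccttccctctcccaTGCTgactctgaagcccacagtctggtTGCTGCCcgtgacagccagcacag
Pde2a, chr7:101461480-101461541, plus strand: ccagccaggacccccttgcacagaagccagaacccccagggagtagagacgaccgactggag
Mrvi1, chr7:110945833-110945892, minus strand: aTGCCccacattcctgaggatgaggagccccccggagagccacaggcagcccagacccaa
Ppp1r12a, chr10:108253325-108253495, plus strand: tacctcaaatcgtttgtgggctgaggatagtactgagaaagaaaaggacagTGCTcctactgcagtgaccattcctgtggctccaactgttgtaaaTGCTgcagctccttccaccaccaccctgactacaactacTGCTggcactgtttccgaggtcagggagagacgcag

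Nos1 and Ppp1r12a had 3 motifs each in the exon, Mrvi1 had 2 in its whole exon of 149 bases (1 of them overlapping the start codon), and Pde2a had none. The last pair of motifs in Nos1 shares 1 base. Such motifs are common: at least 1 was present in 70.5% of the 1795 internal GENCODE exons that are as long as that of Nos1, 88.8% of 1026 as long as that of Ppp1r12a, 83.9% of 1028 as long as that of Mrvi1 and 51% of 808 as long as that of Pde2a. Among the skipped exons listed in the tables, 71.4% of 35 in TA and 68.2% of 66 in choroid plexus held at least 1. In 480/480 myotubes 63.5% of 178 did. Each exon was counted once for these shares. Ranks and other shares below count listed events, in which some exons occur more than once. Per 100 bases, the Nos1 exon held 2.94 motifs against 1.33 over the TA skipped exons, and Ppp1r12a 1.75 against 1.58 in 480/480 myotubes. Mrvi1 held 1.34 and Pde2a 0, against 1.43 in choroid plexus. No test was made of these densities. The search covered the exons and not the introns around them, and motif counts say nothing here about binding.

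In TA, the Nos1 exon (ENSMUSG00000029361.18) fell in 480/480 muscle. Its inclusion was 67.1%, 59.0% and 68.2% in the 480/480 libraries and 78.1%, 98.1% and 95.9% in the wild-type libraries. All 480/480 libraries lay below all wild-type libraries, and the lowest wild-type library was 9.90 points above the highest 480/480 one. The means were 64.8% ± 5.02 in 480/480 and 90.7% ± 11.0 in wild type (SD, n = 3 each), and inclusion fell by 25.9 points. Skipping accounted for the smaller part of Nos1 transcripts in every TA library of either genotype. The authors' deposited table gives this exon an FDR of 7.44e-05, which ranks second among the 37 skipped-exon events of TA, although its change ranks 24th in size.

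The Nos1 exon has 102 bases and adds 34 codons without shifting the reading frame. It lies between coding exons of 59 and 117 bases, behind an intron of 1104 bases and before one of 3747 bases. GENCODE has 1 coding transcript of 1463 codons that includes it and 2 coding transcripts of 1429 codons that skip it. A further transcript that skips it, of 1425 codons, is annotated for nonsense-mediated decay, which degrades messages with an early stop codon. The part of each skipping form in the value was not tested. As background, a form of the enzyme named nNOSμ, known from skeletal muscle, carries an extra insert between its calmodulin-binding and flavin-binding parts. The tables do not name the isoforms. Of all 81 listed TA events, 71.6% had groups that did not overlap and 42% had lower inclusion in 480/480, so a listed event with separate groups is common in this table. An in-frame length is less so, since 37.8% of the listed TA skipped-exon events have an exon length divisible by 3. No test was made of a single exon against that share.

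**Figure D1:**
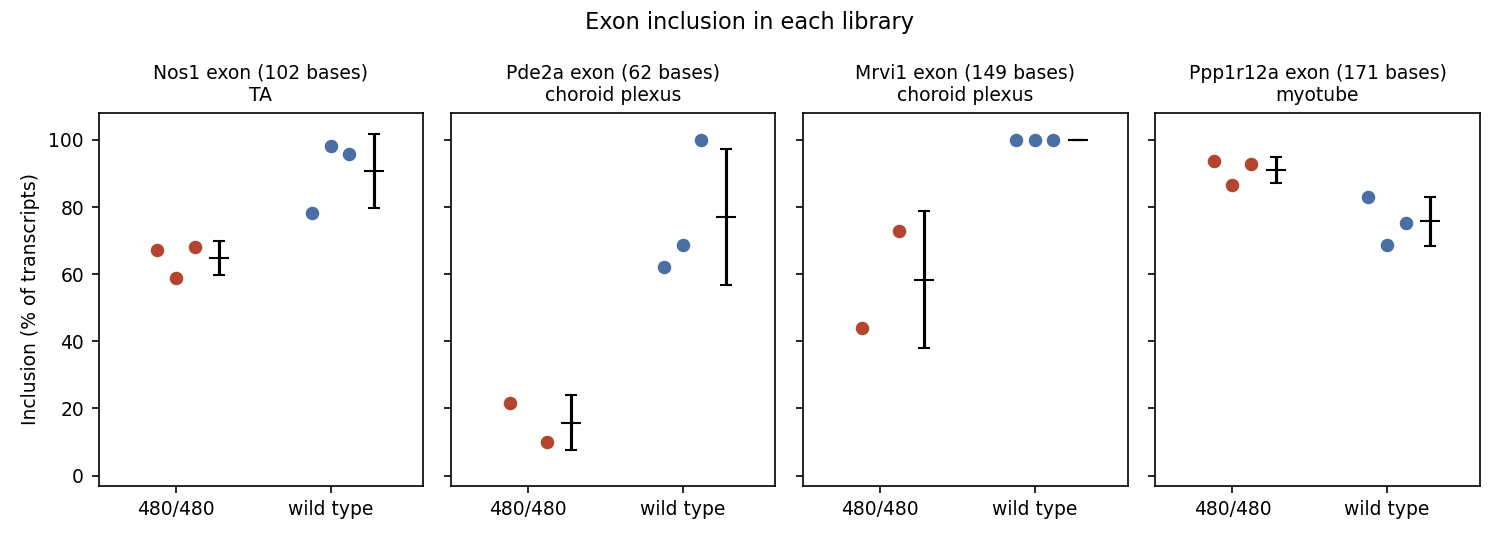
Inclusion of each regulated exon in % of transcripts (y axis) in every library (points) of the expansion group and of wild type, with the mean and SD beside them (n = 3 per group, n = 2 for 480/480 choroid plexus). The points of each pair of groups do not overlap: inclusion is lower in 480/480 for Nos1, Pde2a and Mrvi1 and higher in 480/480 for Ppp1r12a, where the gap is smallest at 3.40 points. Of all listed events, 71.6% in TA, 80% in choroid plexus and 89.7% in 480/480 myotubes had groups that did not overlap.

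In choroid plexus, exons of Pde2a and Mrvi1 fell. The Pde2a exon (ENSMUSG00000110195.1) was included at 21.5% and 9.90% in the 480/480 libraries and at 62.2%, 68.6% and 100% in the wild-type libraries. By this value the exon was mostly kept in each wild-type library and mostly skipped in both 480/480 libraries, and the groups were 40.7 points apart at their closest. The share among whole Pde2a transcripts is not known, for the reasons given in the next paragraph. The means were 15.7% ± 8.20 in 480/480 (SD, n = 2) and 76.9% ± 20.2 in wild type (SD, n = 3), and inclusion fell by 61.2 points. This was the largest change among the 68 listed skipped-exon events of choroid plexus. It was the second largest among all 115 events of that tissue, where the median size was 25.2 points. The authors' deposited table gives an FDR of 0.00458.

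The Pde2a exon has 62 bases, so keeping it shifts the reading frame. GENCODE has 2 Pde2a transcripts that include it between the same flanking exons, and both are annotated for nonsense-mediated decay, the pathway that degrades messages with an early stop codon. In both, the coding sequence ends 10 bases into the next exon, after 70 and 80 codons in all. The 4 coding transcripts that skip the exon have 935 to 945 codons. Whether the amount of full-length Pde2a message differed was not measured in the tables. The same exon is also annotated in Gm45837, a read-through gene on the same strand whose coding transcript includes it, and reads from the overlapping genes cannot be told apart at this exon. Another 2 non-coding Pde2a transcripts share only the exon's downstream junction, and their part in the value was not tested.

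The Mrvi1 exon (ENSMUSG00000005611.15) was included at 43.9% and 72.8% in the 480/480 choroid plexus libraries and at 100% in all 3 wild-type libraries. Skipping was seen in both 480/480 libraries and in none of the wild-type ones, and the 480/480 libraries differed more from each other than the nearer one differed from wild type. The means were 58.4% ± 20.4 in 480/480 (SD, n = 2) and 100% ± 0 in wild type (SD, n = 3). Inclusion fell by 41.7 points, the 9th largest change of the 68 skipped-exon events. The change was -27.2 points without the 480/480 library listed first and -56.1 points without the one listed second. The authors' deposited table gives an FDR of 0.0118, the one closest to the limit of 0.05 among the 4 genes. All wild-type libraries stood at 100% in 14 of the 115 choroid plexus events (12.2%). Both 480/480 libraries stood at 100% in 17 of the 115, so such fixed values are not confined to wild type.

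The Mrvi1 exon (chr7:110945833-110945981, minus strand) has 149 bases, of which, in the form with 856 codons, the first 89 are 5′ untranslated and the last 60 encode 20 codons from the start codon. The upstream neighbour in the table, of 114 bases, is untranslated, and an intron of 36109 bases separates them. In GENCODE, only 1 transcript, of 5 exons, joins the exon to both of its listed neighbours. It is annotated with 364 coding bases, which is not a whole number of codons. This transcript also has its start codon in the exon, with 60 coding bases there. A transcript that skips the exon therefore lacks the start codon of this form and of the coding sequence of 856 codons. No GENCODE M21 transcript joins the exons on either side directly. Another coding transcript, of 921 codons, starts with a longer version of this exon, codes through all 149 bases and shares the downstream junction, and the transcript of 856 codons joins the exon to another first exon. Reads over the downstream junction can come from any of these forms, and their part in the value was not tested. Of the 115 choroid plexus events, 80% had groups that did not overlap and 67% had lower inclusion in 480/480, and both exons described here are on the commoner side of each.

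**Figure D2:**
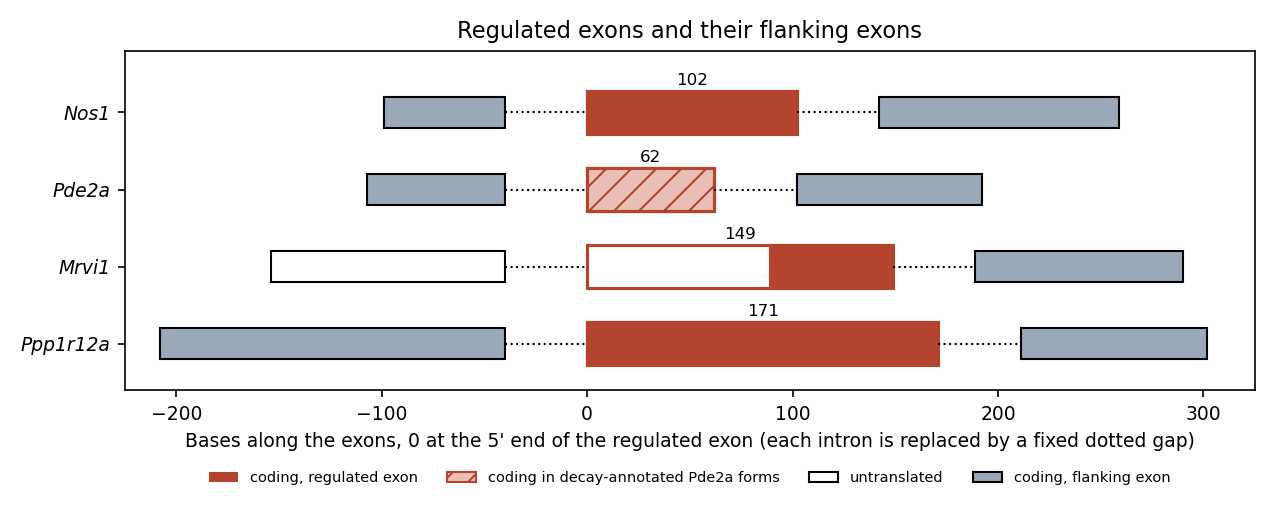
The regulated exon of each gene (middle, with its length in bases) and its flanking exons (left and right), drawn to scale in bases from the 5′ end of the regulated exon, with introns replaced by a fixed gap. Nos1 and Ppp1r12a exons are wholly coding and in frame, that of Pde2a is coding in the Pde2a transcripts annotated for decay and is also in a coding transcript of Gm45837, and that of Mrvi1 is drawn as in its form with 856 codons, with 89 bases untranslated and 60 coding, while the form with 921 codons codes through all 149 bases.

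In myotubes, Ppp1r12a was the 1 gene of the 4 whose exon rose. The Ppp1r12a exon (ENSMUSG00000019907.10) was included at 93.7%, 86.5% and 92.9% in the 480/480 libraries and at 83.1%, 68.7% and 75.3% in the wild-type libraries. The lowest 480/480 library was 3.40 points above the highest wild-type one, the narrowest separation of the 4 genes. The means were 91.0% ± 3.95 in 480/480 and 75.7% ± 7.21 in wild type (SD, n = 3 each), a rise of 15.3 points. That size ranks 135th of the 184 skipped-exon events in the table, whose median was 21.2 points. It is the nearest of the 4 genes to the authors' minimum of 10 points. The authors' deposited table gives an FDR of 0.00122.

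The Ppp1r12a exon has 171 bases, or 57 codons in frame, between coding exons of 168 and 91 bases. Introns of 400 bases before it and 6260 bases after it flank it. GENCODE has 2 coding transcripts that include it, of 1004 and 1029 codons, and 1 incomplete coding transcript that skips it. Exon lengths divisible by 3 made up 70.7% of the skipped-exon events in this table. Of the 243 events in 480/480 myotubes, 89.7% had groups that did not overlap and 39.1% had higher inclusion in 480/480. The Ppp1r12a exon is not in the +/480 myotube tables, and neither is any other event of the 4 genes, so inclusion with 1 and with 2 expanded alleles could not be compared.

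**Figure D3:**
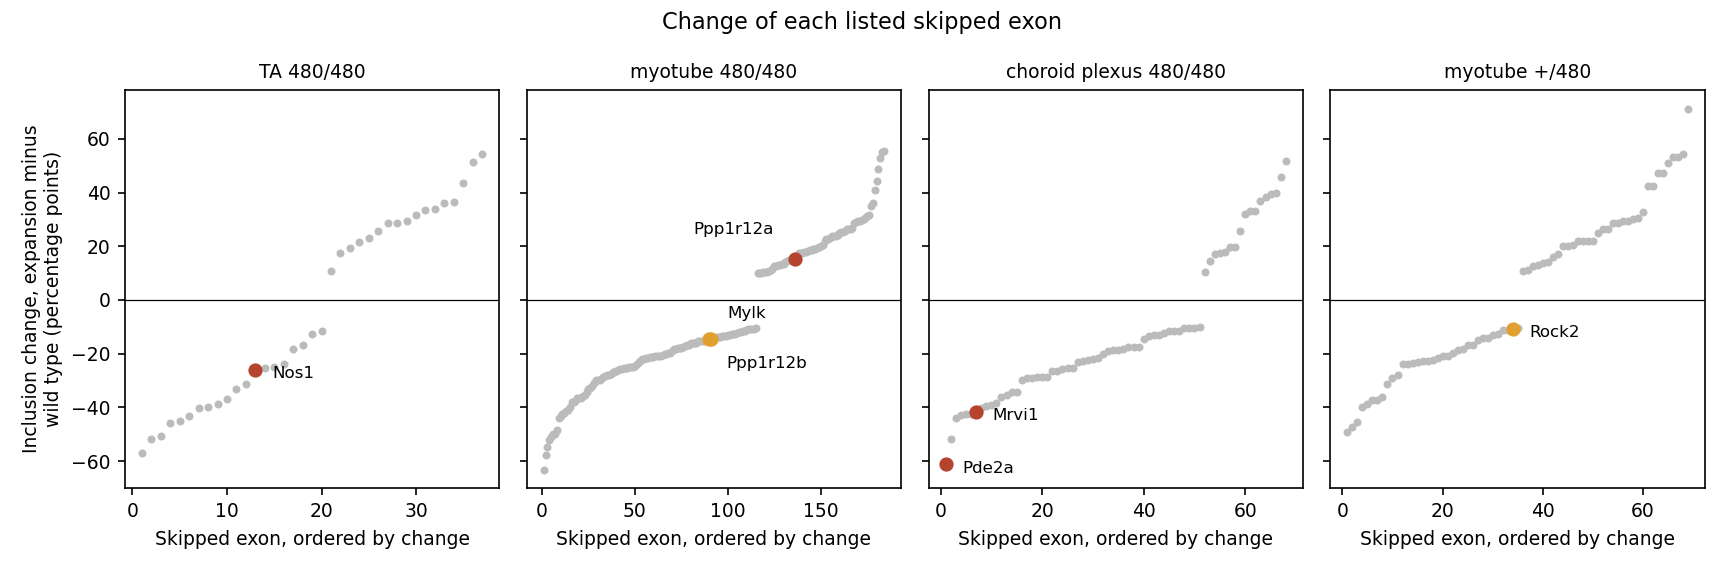
Change in inclusion, expansion minus wild type in percentage points (y axis), of every listed skipped-exon event in each comparison, ordered by change (x axis). The 4 genes are in red and other genes of the pathway list in yellow. Pde2a has the lowest value of the choroid plexus exons at -61.2 points, Nos1 is at -25.9 points in TA, and Ppp1r12a (15.3) is among the smaller rises in 480/480 myotubes; the empty band around 0 is the authors' minimum of 10 points.

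Each of the 4 genes was listed in 1 comparison only, while 56 of the 376 listed genes were in more than 1. An unlisted exon may have been unchanged, too lightly covered or not expressed in that tissue, and the tables do not say which. Across the 4 exons, 3 fell and 1 rose, in 3 tissues, and for all 4 the groups did not overlap. Of all listed events, groups did not overlap in 71.6% in TA, 80% in choroid plexus and 89.7% in 480/480 myotubes. Lower inclusion made up 42%, 67% and 60.9% of them, so neither count sets these exons apart from other listed events. The exons share little in form: 2 are wholly coding and in frame, 1 shifts the frame and 1 holds the start codon of an annotated form, and their lengths run over the 62, 102, 149 and 171 bases given above. Within-group spread was not uniform either. The SD was larger in wild type than in 480/480 for Nos1, Pde2a and Ppp1r12a, and larger in 480/480 for Mrvi1, where wild type had none. The 480/480 SDs of Pde2a and Mrvi1 rest on 2 libraries. How often wild type had the larger SD over all listed events was not computed.

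Beyond these genes, 66 genes of the pathway (the 4 included) were looked up in all tables, and 7 had an event, each with 1 skipped exon: 1 rose and 6 fell. The tables do not give how many genes were tested, so these counts have no share of all genes to be read against, and lower inclusion made up 42% to 67% of the events in each comparison. Among 20 nitric oxide synthases and their partner proteins, only Nos1 had one. Among 10 guanylate cyclases, natriuretic peptides and their receptors, and among 4 enzymes of arginine and methylarginine, none did. Of 11 phosphodiesterases, Pde2a alone did. Of 12 cyclic GMP kinases, their substrates and cyclic nucleotide channels, Mrvi1 alone did. The branch that sets myosin phosphorylation, with myosin phosphatase, myosin kinase and their regulators, had events in 4 of 9 genes, all in myotubes: Ppp1r12a rose, and Ppp1r12b, Mylk and Rock2 fell. The 480/480 and +/480 myotube tables hold 243 and 110 of the 549 events. The pathway list was chosen with earlier results of these data known. The 4 genes were picked because they had a listed event, so each branch that holds 1 of them counts it by construction. Whether events gather in any branch was not tested. Each of the 59 other genes had no listed event.

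Ppp1r12b (ENSMUSG00000073557.11), which encodes MYPT2, the targeting subunit of myosin phosphatase in striated muscle, fell in the same 480/480 myotubes in which Ppp1r12a rose. Inclusion of its exon (chr1:134765897-134766077, minus strand) was 7.70%, 3.00% and 10.1% in the 480/480 libraries and 28.7%, 18.2% and 17.7% in the wild-type libraries. The groups were 7.60 points apart, and the means were 6.93% ± 3.61 in 480/480 and 21.5% ± 6.21 in wild type (SD, n = 3 each). By this value the exon was the minor form in both genotypes. It has 181 bases, of which 132 are coding and are followed by a stop codon within the exon. In the transcript that skips it, the last 84 coding bases come from the next exon, so the forms differ in the end of the protein. Another coding transcript, of 992 codons, also has 132 coding bases and its stop codon in the exon, but shares only the upstream junction. Its part in the value was not tested, so the share of each protein end is not known. The authors' deposited table gives an FDR of 0.000124.

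Mylk (ENSMUSG00000022836.10), which encodes the kinase that phosphorylates myosin light chain, fell in 480/480 myotubes at an in-frame exon of 138 bases (chr16:34912147-34912284). Inclusion was 67.9%, 80.0% and 100% in the 480/480 libraries and 100%, 91.6% and 100% in the wild-type libraries. The groups overlap, and the means were 82.6% ± 16.2 in 480/480 and 97.2% ± 4.85 in wild type (SD, n = 3 each). The exon fell by 14.6 points. The change was -7.20 points without the 480/480 library listed first and -23.25 points without its last listed library. The authors' deposited table lists it at an FDR of 0.0489, close to the limit. GENCODE has 1 coding transcript that includes the exon and 0 that skip it. Another 2 non-coding transcripts share only its downstream junction, and their part in the value was not tested. Of the events in 480/480 myotubes, 60.9% had lower inclusion in 480/480, as Ppp1r12b and Mylk did.

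Rock2 (ENSMUSG00000020580.10), which encodes a kinase that phosphorylates the myosin phosphatase targeting subunit, fell in +/480 myotubes and was not in the 480/480 myotube table. Inclusion of its exon (chr12:16973440-16973610) was 76.0%, 75.7% and 84.3% in the +/480 libraries and 92.2%, 91.4% and 84.7% in the wild-type libraries. The groups were 0.40 points apart. The means were 78.7% ± 4.88 in +/480 and 89.4% ± 4.12 in wild type (SD, n = 3 each). Inclusion fell by 10.8 points, just above the authors' minimum of 10 points and 67th in size of 69 skipped-exon events. With single libraries left out the change ran from -13.6 to -9.28 points, and in 2 of 6 cases it reached 10 points. The authors' deposited table gives an FDR of 0.0035. The exon has 171 bases and adds 57 codons in frame, the same length as the Ppp1r12a exon. Of the 110 events in +/480 myotubes, 80.9% had groups that did not overlap and 50% had lower inclusion in +/480. The Ppp1r12a, Ppp1r12b and Mylk values come from the same 480/480 and wild-type libraries, and the Rock2 comparison uses the same wild-type libraries, so these results are not independent of each other.

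**Figure D4:**
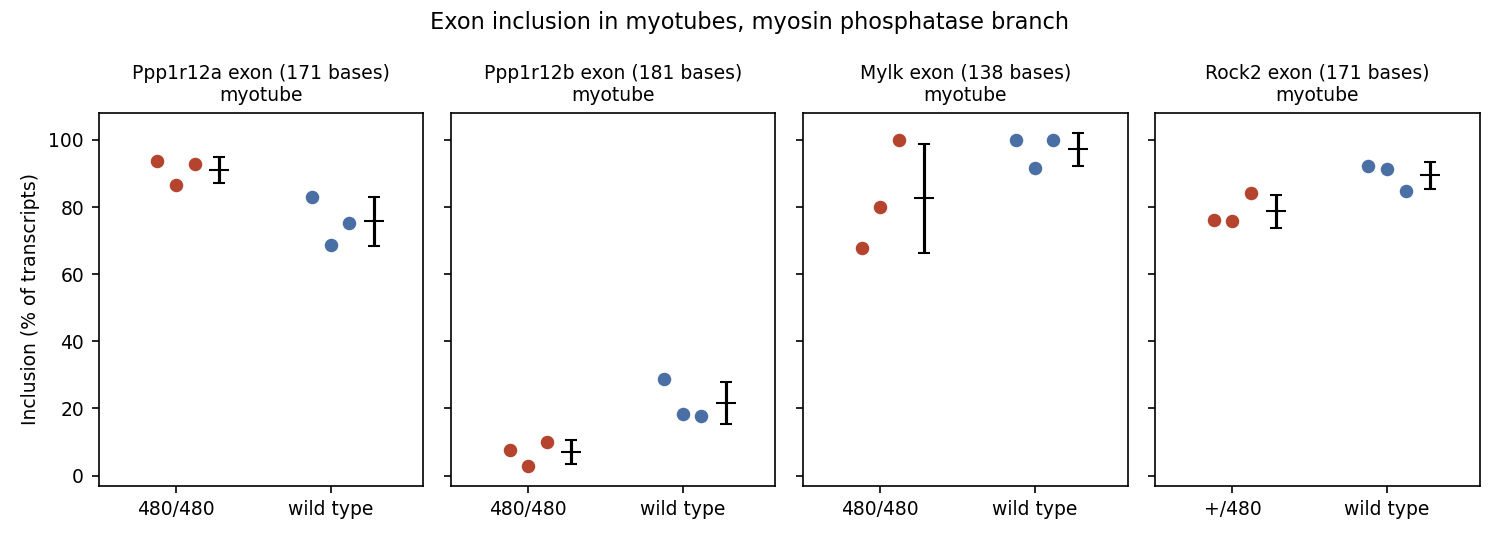
Inclusion in % of transcripts (y axis) in every myotube library (points) for the 4 genes of the myosin phosphatase branch with a listed exon, with mean and SD beside them (n = 3 per group). Ppp1r12a is higher in 480/480 and Ppp1r12b lower, Rock2 is lower in +/480 by a gap of 0.40 points, and the Mylk groups overlap.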

How the data were processed

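RNA was sequenced from 33 libraries in 11 groups, of which 7 groups with 21 labelled libraries are in the splicing tables. The other 4 groups were not analysed here. Per the submitters' processing notes, FastQC and STAR were used with mm10. Libraries were directional and depleted of ribosomal RNA, per the labels' protocols. For the event caller, no name is given in the sources used here. All 20 tables (5 event types, 4 comparisons) hold the authors' inclusion fraction per library, their p-value and FDR per event, and a difference score, which is the authors' wild type minus expansion. Per the file headers, events had at least 5 reads on average, an FDR of 0.05 or less and a difference of 0.1 or more.

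Fractions were turned into percentages, and changes were computed as expansion minus wild type from group means. They lay within 0.05 points of the deposited differences. Libraries are told apart by listing order, since the lists hold no replicate numbers. Replicates are separate mice per the labels. An exact permutation test of 3 libraries against 3, or 3 against 2, cannot go below p = 0.10, so none was run, and the planned test of 480/480 against +/480 had no exon to use. Depth is unknown, so no counting interval is given.

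The genes and the pathway list were chosen with earlier results of these data known. Text names every listed event of the 4 genes and of the pathway list. File coordinates matched GENCODE M21 exons directly, and exon sequences came from its transcripts. Flanking introns were not searched, because no genome sequence was used. Ranks, non-overlap shares and motif shares are descriptions. The calculation was tested on simulated data. Python 3.11.15, NumPy 2.4.6 and matplotlib 3.10.9 were used.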

Additional observations from a re-analysis of the deposited data

How the results depend on the processing

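With each library left out in turn, the exons of Nos1, Pde2a, Mrvi1 and Ppp1r12a kept their direction and a change of at least 10 points in every case. The direction could not have reversed, since the groups of these exons did not overlap. The exons had also been listed for a change of at least 10 points in the same libraries. In choroid plexus, leaving out a 480/480 library left a single library in that group. Mrvi1 moved by more than its spread, between -56.1 and -27.2 points, because it rests on 2 unlike 480/480 libraries. Group medians in place of means left these 4 within their spread, while Rock2 moved to -15.4 points. With 2 libraries the median equals the mean, so in choroid plexus only the wild-type group could differ. For Mrvi1 all wild-type values were equal, so its change could not move. At an FDR of 0.01 or less, 1 of the 2 choroid plexus events was left, Pde2a. At a change of 20 points or more, 0 of the listed events of the 4 genes was left in 480/480 myotubes. No other threshold or event-type setting changed their counts. The share of events whose groups do not overlap ran with single libraries left out from 72.8 to 86.4% in TA, 90.9 to 93.0% in 480/480 myotubes, 86.1 to 88.7% in choroid plexus and 81.8 to 89.1% in +/480 myotubes; smaller groups overlap less by construction. No paired analysis was possible because the lists of values carry no replicate number, genotypes are different mice and no test between groups was run. With 2 or 3 libraries and unknown depth, differences smaller than the authors' minimum are not in the tables.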
